A study of Drosophila melanogaster with 15 samples.

Results

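The synaptic vesicle release machinery is described here by 10 genes, n-syb, Syx1A, Snap25, Syt1, cpx, unc-13, Rop, brp, comt and shi. They were chosen by name, and all transcripts carrying one of these names were taken, which gave 55 transcripts of 18960 in the table and 10 genes of 11257. The RNA came from single adult male flies in 4 groups. The WT AMPH group held isogenic w1118 flies fed 10 mM amphetamine (AMPH) for 48 h (4 libraries), and the WT vehicle group the same strain on the same agar and sucrose food without drug (4 libraries). The DAT AMPH group (3 libraries) and the DAT vehicle group (4 libraries) held dDATfmn flies, called DAT mutants, given the same foods. This mutation is a loss-of-function allele of the dopamine transporter gene and had been back-crossed to w1118, so that the strains share their background. All flies were 7 days old when moved to these foods. The sample records name the source as adult head and the tissue as brain, and the protocol describes individual brains, so the p-values below measure the spread between flies of 1 strain on 1 food. Library titles of each group share a prefix of their own whose meaning is not given, so that anything it marks cannot be told apart from the group.

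Neurons release transmitter when a vesicle in the terminal fuses with the plasma membrane. Fusion is driven by SNARE proteins, one on the vesicle and the others on the plasma membrane, which zip together. Calcium sensing, clamping and priming proteins set when this happens, a scaffold at the active zone holds vesicles near calcium channels, and after fusion the SNAREs are pulled apart and membrane is taken back by endocytosis. In flies these genes are known from mutants that block or alter transmission, among them the temperature-sensitive paralytic alleles of shi and comt. AMPH acts on the dopamine transporter and raises extracellular dopamine. The comparisons below ask how transcripts of the release machinery differ after AMPH in each strain, and whether the response differs without the transporter.

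Values are RPKM, which are read counts divided by transcript length and by library size, 1 value for each transcript. Because RPKM is per length, levels of different genes may be compared. Of the 15 libraries, 2 were left out of the tests, WT vehicle replicate 1 and DAT vehicle replicate 2, because the study's own group averages are reached only without them. All 15 serve as the alternative. DAT vehicle replicate 2 stood apart: its Spearman correlation across transcripts with other libraries of its group was at most 0.858, and its median transcript was at 9.59 RPKM, while the medians of the other 14 libraries were 15.6 to 18.1 RPKM. Depth, read from the smallest step between low values on the assumption that 1 step is 1 read, was 38.6 to 62.7 M reads (megareads) in WT AMPH, 20.7 to 77.7 M in WT vehicle, 19.5 to 43.6 M in DAT AMPH and 11.1 to 46.9 M in DAT vehicle. By this reading the median of the libraries tested was 54.0 M in WT AMPH and 36.9 M in WT vehicle. It was 41.9 M in DAT AMPH and 11.2 M in DAT vehicle, so median depth was lower on vehicle in both strains. Even Syx1A, the lowest of the 10 genes, then had at least 690 reads per kilobase in each of the 13 libraries tested, and 213 in DAT vehicle replicate 2. All 55 transcripts passed the filter on low values. The transcript of the mutated gene, DAT, was at 1.23 to 1.81 RPKM in DAT AMPH, 1.98 to 2.37 in DAT vehicle, 1.93 to 3.30 in WT AMPH and 2.18 to 3.12 in WT vehicle, so that every DAT mutant library lay below every WT library on AMPH, while on vehicle the strains overlapped. Neuronal markers were present in every library: Appl was at 39.9 RPKM or more and nrv3 at 152 RPKM or more. Photoreceptor RNA was abundant, with ninaE, the main rhodopsin of the eye, at 15698 to 30234 RPKM, so RNA of the eye was part of these libraries. In such bulk RNA, fewer cells of a type and less RNA per cell cannot be told apart.

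The 10 genes are described by their most abundant transcript, the one with the highest mean RPKM over the 13 libraries. Positions are on dm3, as deposited. On the vesicle sits the SNARE n-syb, neuronal synaptobrevin (FBgn0013342, transcript FBtr0300893, chromosome 3L from 1632193 to 1637767, minus strand). Its partners on the plasma membrane are the syntaxin Syx1A (FBgn0013343, FBtr0084588, 3R from 19929101 to 19931465, minus strand) and Snap25 (FBgn0011288, FBtr0111143, 3L from 24067329 to 24292305, plus strand). Syt1, synaptotagmin, is the calcium sensor of fast release (FBgn0004242, FBtr0077728, 2L from 2780741 to 2799970, minus strand). Complexin, encoded by cpx (FBgn0041605, FBtr0078902, 3R from 110074 to 128309, plus strand), binds the assembled SNAREs and restrains spontaneous fusion at fly synapses. The priming factor is unc-13 (FBgn0025726, FBtr0089246, chromosome 4 from 891553 to 925419, minus strand), and Rop (FBgn0004574, FBtr0073263, 3L from 4136785 to 4139201, minus strand) is the Sec1/Munc18 protein that binds syntaxin. The active zone scaffold is Bruchpilot, from brp (FBgn0259246, FBtr0300542, 2R from 5397357 to 5424980, plus strand). After fusion, the ATPase NSF, from comt (FBgn0000346, FBtr0073754, X from 13153028 to 13156527, plus strand), takes SNARE complexes apart, and dynamin, from shi (FBgn0003392, FBtr0301596, X from 15786922 to 15800285, plus strand), pinches off endocytic membrane. The span of Syx1A overlapped that of 4EHP on the same strand, that of Rop overlapped Ras64B and that of cpx overlapped CG9780 on the opposite strand. Whether counting used strand is not given in the sources used here, so reads of those genes may enter these 3 values.

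All 10 genes were abundant. Complexin had the highest mean level over the 13 libraries, 705 RPKM, and n-syb followed with 448 RPKM. Syt1 averaged 168, shi 144, comt 101, Snap25 94.1, Rop 93.6, unc-13 85.0, brp 63.6 and Syx1A 59.6 RPKM. Every one of them lay above the 88th percentile of genes, the lowest being Syx1A at 88.7 and the highest cpx at 98.9. Taken by these transcripts, the order was firm at the top: n-syb was above Syt1, and shi above comt, in 13 of 13 libraries, and cpx was above n-syb in 12 of 13. The place of cpx rests on FBtr0078902, since its other 20 transcripts averaged 291 to 351 RPKM, below the 393 to 448 RPKM of the n-syb transcripts. Lower down, neighbours traded places. Snap25 was above Rop in 6 of 13 libraries, brp above Syx1A in 8, Rop above unc-13 in 9 and comt above Snap25 in 10. The order of these neighbours thus varied between libraries, and their difference in level was not tested. The SNAREs that pair in fusion were thus measured at unequal transcript levels, with n-syb at several times the level of Syx1A and Snap25.

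**Figure D1:**
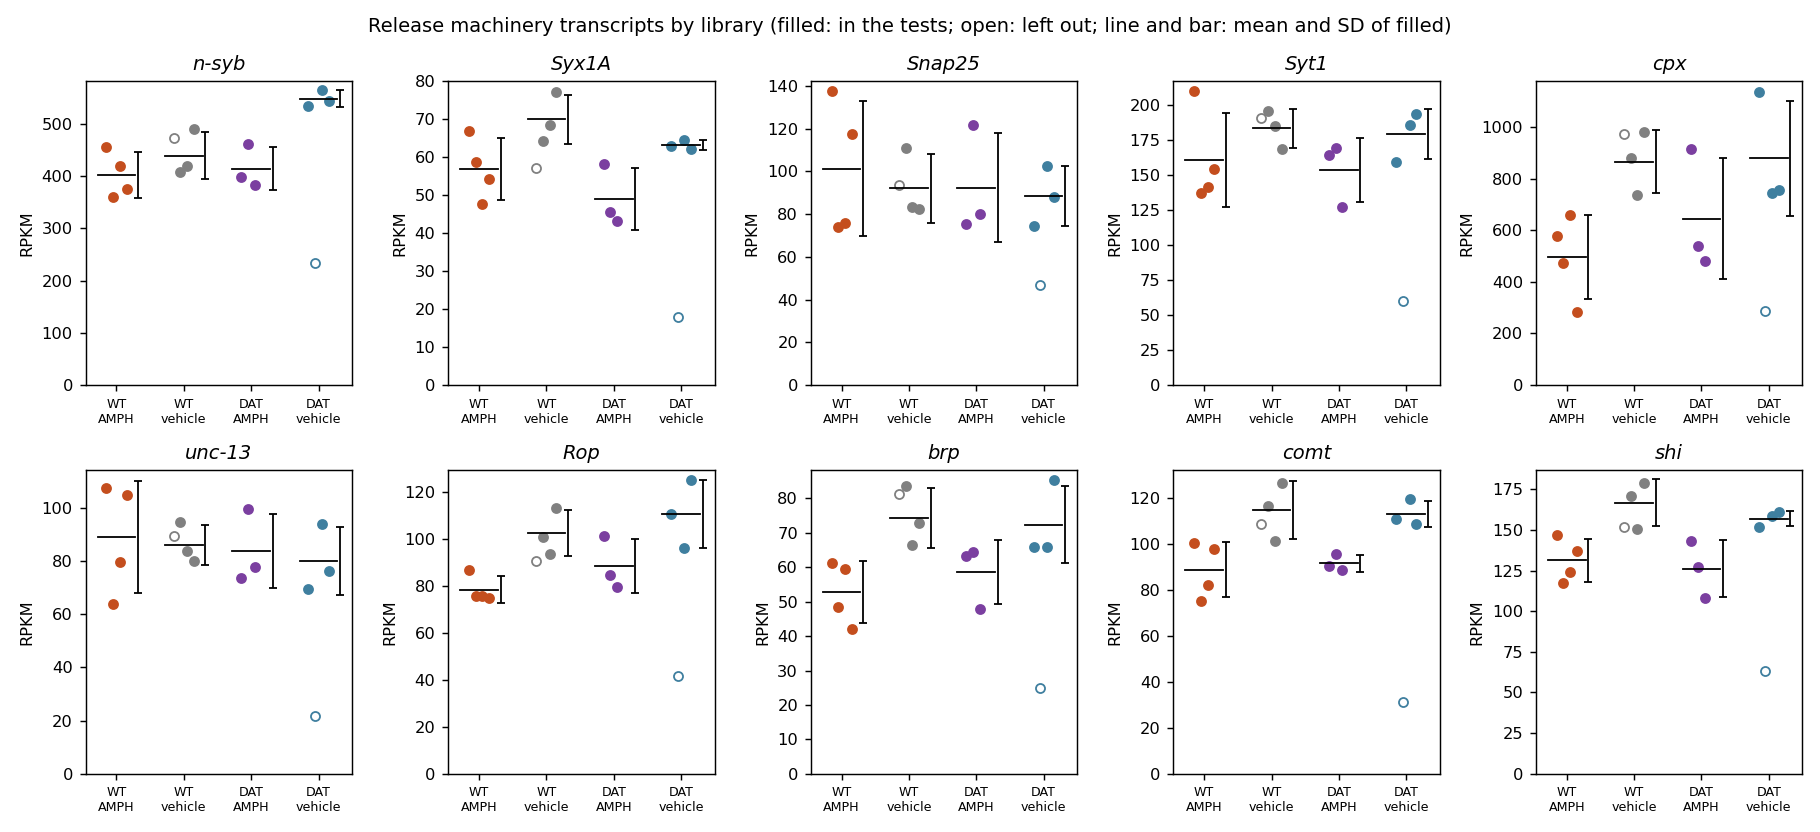
RPKM of the most abundant transcript of each release gene (y axis, starting at 0, each panel with its own scale) in each library, by group (x axis); filled points are the 13 libraries in the tests, open points the 2 left out, lines and bars the mean and SD of the filled points. In WT the AMPH libraries of Rop, brp, cpx, comt and shi all lie below the vehicle libraries, and the open DAT vehicle point lies lowest in its group for all 10 genes.

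In WT heads, AMPH was accompanied by lower levels of the most abundant transcript in 4 of the 10 genes and higher levels in none. Those that fell were Rop, brp, cpx and shi: a syntaxin-binding protein, the active zone scaffold, the fusion clamp and the endocytic dynamin. Differences were tested with limma on log2(RPKM + 1), with p-values adjusted after Benjamini-Hochberg over all 17584 transcripts tested and a threshold of 0.1. In this comparison 12.3% of all genes, taken by their most abundant transcript, were called lower, 7.93% higher and 20.2% in either direction. On the log2 scale 8 of the 10 release genes were negative, with a median of -0.32, while the median of all genes was -0.04. In 5 of the 10 genes, Rop, brp, cpx, comt and shi, every WT AMPH library lay below every WT vehicle library, which was so for 16.4% of all genes.

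Complexin changed most in size, by its most abundant transcript, FBtr0078902. Its other 20 transcripts had log2 fold changes of -0.12 to -0.04 and none was called, as given below. FBtr0078902 had 580, 475, 658 and 281 RPKM in WT AMPH replicates 1 to 4, against 879, 737 and 981 RPKM in WT vehicle replicates 2 to 4. The groups did not overlap, and the lowest value was that of WT AMPH replicate 4. It averaged 498 ± 163 RPKM in WT AMPH (SD, n = 4) and 866 ± 123 RPKM in WT vehicle (SD, n = 3), with a log2 fold change of -0.85 (SE 0.28, limma adjusted p = 0.081), a change of -44.7% with a 95% interval of -64.7% to -13.4%.

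The scaffold gene brp was at 61.3, 48.4, 59.6 and 42.2 RPKM in WT AMPH, against 83.7, 66.5 and 72.8 RPKM in WT vehicle. All WT AMPH libraries were lower, again with replicate 4 at the bottom, and the log2 fold change was -0.49 (SE 0.15, limma adjusted p = 0.067). Rop was at 86.8, 75.7, 75.7 and 75.0 RPKM in WT AMPH, against 101, 93.5 and 113 RPKM in WT vehicle. It had the tightest AMPH group of the machinery, and its log2 fold change was -0.38 (SE 0.11, limma adjusted p = 0.053). For shi, WT AMPH libraries had 147, 117, 124 and 137 RPKM, against 171, 151 and 179 RPKM in WT vehicle. Here the gap between the groups was narrow, with WT AMPH replicate 1 just under WT vehicle replicate 3, and the log2 fold change was -0.34 (SE 0.12, limma adjusted p = 0.099).

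The remaining 6 genes did not pass the threshold in WT. The other recycling factor, comt, came nearest: it had 100, 75.3, 82.0 and 97.5 RPKM in WT AMPH, against 116, 101 and 126 RPKM in WT vehicle, without overlap (log2 fold change -0.37, limma adjusted p = 0.113). Among the SNAREs, Syx1A was at 66.9, 58.8, 47.6 and 54.4 RPKM in WT AMPH, against 64.3, 68.6 and 77.1 RPKM in WT vehicle (log2 fold change -0.30, limma adjusted p = 0.172). The vesicle SNARE n-syb had 455, 360, 420 and 376 RPKM in WT AMPH, against 407, 420 and 491 RPKM in WT vehicle (log2 fold change -0.13, limma adjusted p = 0.590). These groups overlapped. The calcium sensor Syt1 had 209, 137, 141 and 154 RPKM in WT AMPH, against 196, 185 and 168 RPKM in WT vehicle (log2 fold change -0.21, limma adjusted p = 0.435). Its WT AMPH replicate 1 lay above all vehicle libraries and the other 3 below them. Snap25 and unc-13, a SNARE and a priming factor, were the only genes of the 10 with a positive log2 fold change, 0.09 (95% interval -0.45 to 0.64) and 0.02 (-0.41 to 0.45).

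These WT calls lay close to the threshold. At an adjusted p under 0.05 none of the 10 was called, and after centring each library on its median none was, the log2 fold changes of the 4 then being -0.78 for cpx, -0.42 for brp, -0.30 for Rop and -0.27 for shi. Over all transcripts this centring changed the split of calls from 1266 higher and 2602 lower to 1801 higher and 1738 lower, and quantile normalization to 1764 higher and 1850 lower, with cpx then the 1 release gene called (limma adjusted p = 0.053). Leaving out 1 library left 0 called genes without WT vehicle replicate 2, WT vehicle replicate 4 or WT AMPH replicate 2, 1 without WT vehicle replicate 3, 2 without WT AMPH replicate 3 or 4, and 7 without WT AMPH replicate 1. The share of all transcripts called moved as well, from 22.0% with no library left out. It was 11.9%, 12.7% and 16.3% in the fits with 0, and 26.8% in the fit with 7. With WT vehicle replicate 1 added back, at 90.4 RPKM for Rop, 81.3 for brp, 972 for cpx, 108 for comt and 151 for shi, 5 genes were called, comt joining (limma adjusted p = 0.067). In that fit 29.6% of all transcripts were called.

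In DAT mutant heads, AMPH was accompanied by lower levels of 3 of the 10 genes, n-syb, Syx1A and comt, and higher levels of none. These are the vesicle SNARE, a plasma membrane SNARE and the ATPase that separates them. In this comparison 13.6% of all genes were called lower, 7.85% higher and 21.4% in either direction. Again 8 of 10 log2 fold changes were negative, with a median of -0.31 beside -0.05 over all genes. In 5 of the 10, n-syb, Syx1A, brp, comt and shi, every DAT AMPH library lay below the 3 DAT vehicle libraries tested, as did 21% of all genes. The call rests on leaving out DAT vehicle replicate 2, as given below.

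For n-syb, DAT AMPH replicates 1 to 3 had 399, 461 and 382 RPKM, against 535, 566 and 545 RPKM in DAT vehicle replicates 1, 3 and 4. The vehicle libraries were the highest n-syb values of the series. The means were 414 ± 41.5 RPKM in DAT AMPH and 549 ± 15.8 RPKM in DAT vehicle (SD, n = 3 each), with a log2 fold change of -0.41 (SE 0.11, limma adjusted p = 0.047), a change of -24.7% with a 95% interval of -37.2% to -9.66%. Syx1A was at 58.4, 45.6 and 43.2 RPKM in DAT AMPH, against 63.0, 64.6 and 62.1 RPKM in DAT vehicle. The vehicle libraries lay close together, and the log2 fold change was -0.37 (SE 0.12, limma adjusted p = 0.083). For comt the values were 90.1, 95.5 and 88.6 RPKM in DAT AMPH, against 111, 119 and 109 RPKM in DAT vehicle, a log2 fold change of -0.30 (SE 0.09, limma adjusted p = 0.067).

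Those not called in DAT mutants included the 4 called in WT. Dynamin, from shi, was at 143, 127 and 108 RPKM in DAT AMPH, against 152, 158 and 161 RPKM in DAT vehicle (log2 fold change -0.32, limma adjusted p = 0.116). For brp the values were 63.3, 64.5 and 47.9 RPKM in DAT AMPH, against 66.0, 65.9 and 85.3 RPKM in DAT vehicle (log2 fold change -0.30, limma adjusted p = 0.217). Both were free of overlap, though by a narrow margin in brp. Rop had 101, 84.6 and 79.3 RPKM in DAT AMPH, against 111, 96.1 and 125 RPKM in DAT vehicle (log2 fold change -0.32, limma adjusted p = 0.149), and its groups overlapped. Complexin FBtr0078902 had 916, 539 and 481 RPKM in DAT AMPH, against 1136, 745 and 755 RPKM in DAT vehicle (log2 fold change -0.47, limma adjusted p = 0.256). Replicate 1 was the highest of its group on both foods, and the spread was wide. Syt1 had 164, 169 and 127 RPKM in DAT AMPH, against 159, 186 and 193 RPKM in DAT vehicle (log2 fold change -0.23, limma adjusted p = 0.302). As in WT, Snap25 and unc-13 were the positive ones, at 0.04 (95% interval -0.40 to 0.48) and 0.07 (-0.28 to 0.41).

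With DAT vehicle replicate 2 in the fit, 1.47% of all transcripts were called in DAT mutants, against 22.1% without it. No release gene was called in that fit and 0 passed an unadjusted p under 0.05. Of the 10 log2 fold changes 8 were positive, with a median of 0.07 beside 0.11 over all genes. DAT vehicle replicate 2 was the lowest of its group for all 10 genes, with 235 RPKM for n-syb, 17.8 for Syx1A and 31.2 for comt. Syx1A then came to 0.07 and comt to 0.15, while n-syb stayed negative at -0.10 (limma adjusted p = 0.965), as did cpx at -0.08. Without DAT vehicle replicate 2, leaving out 1 more library left 0 called genes without DAT vehicle replicate 3, DAT vehicle replicate 4 or DAT AMPH replicate 3, 1 without DAT vehicle replicate 1 or DAT AMPH replicate 2, and 5 without DAT AMPH replicate 1. Of all transcripts 18.4%, 12.2% and 13.1% were called in the fits with 0, and 22.9% in the fit with 5. Centring on the median left 1, n-syb (limma adjusted p = 0.093), and over all transcripts changed the split of calls from 1173 higher and 2689 lower to 1980 higher and 1932 lower. With quantile normalization 0 release genes were called and the split was 1888 higher and 2029 lower.

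**Figure D2:**
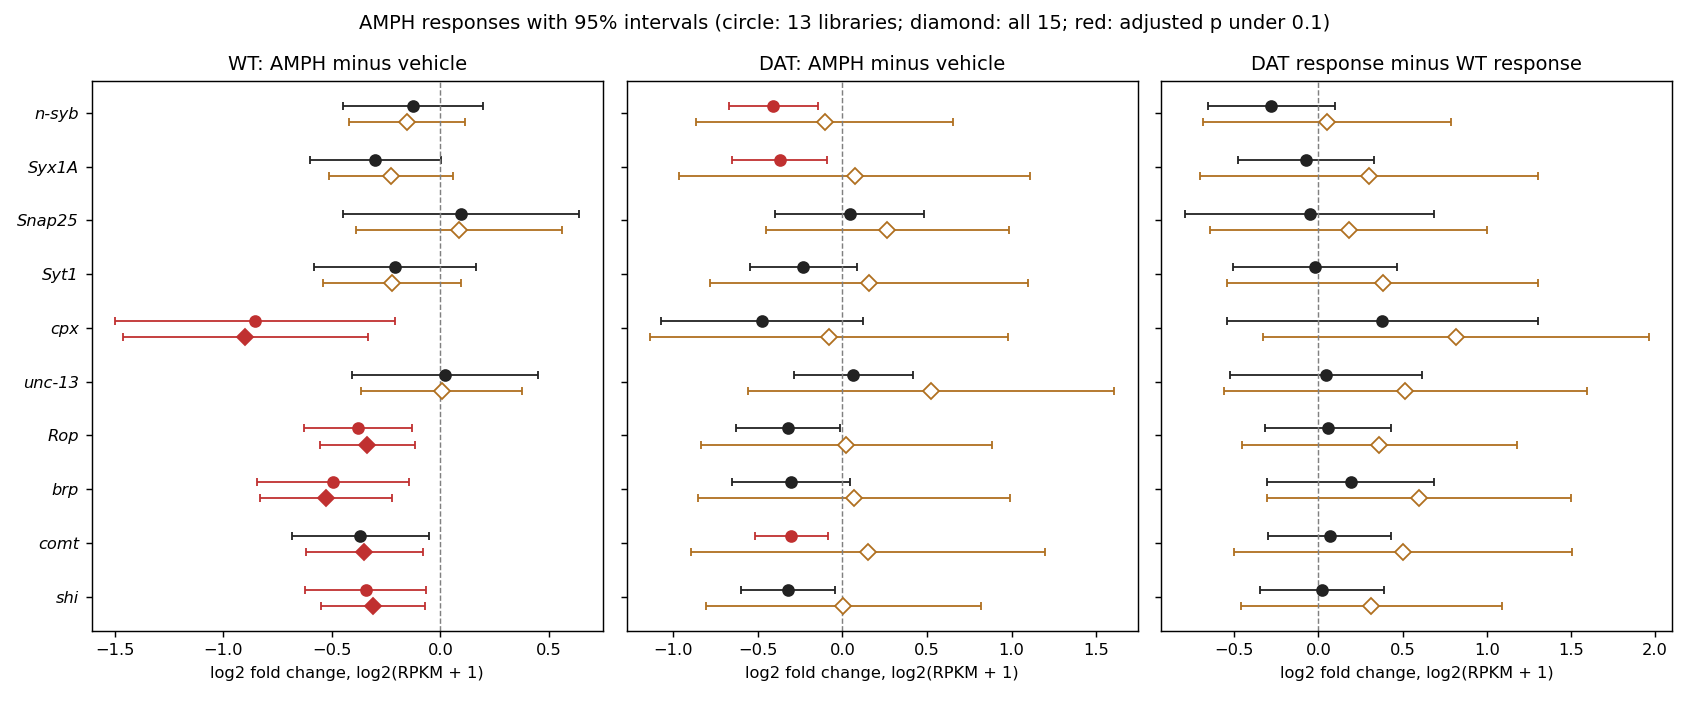
Log2 fold changes on the log2(RPKM + 1) scale (x axis, each panel with its own range) of the 10 release genes (y axis) for AMPH against vehicle in WT and in DAT mutants, and for the DAT response minus the WT response, with 95% intervals; circles are the 13 libraries, diamonds all 15, red marks an adjusted p under 0.1. In WT 8 of 10 circles lie below 0 with 4 in red, in DAT mutants 8 of 10 lie below 0 with 3 in red, and all 10 intervals of the difference include 0.

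That 4 genes were called in WT and 3 others in DAT mutants does not show that the strains respond differently, and the difference itself was tested in 1 fit of all 4 groups. None of the 10 genes was called (limma adjusted p = 0.999 for each, 0 at an unadjusted p under 0.05), and across all genes 0.184% were. The DAT response minus the WT response was largest for cpx, 0.38 with a 95% interval of -0.54 to 1.30, and most negative for n-syb, -0.28 with an interval of -0.66 to 0.10. For Syt1, Rop, comt, shi, unc-13, Snap25 and Syx1A it lay between -0.07 and 0.07, and for brp it was 0.19 (-0.31 to 0.69). For the other 20 cpx transcripts it was -0.17 to -0.16. The intervals are wide: for shi, at 0.02, the interval of -0.34 to 0.39 reaches as far as the WT response itself. The median of the 10 was 0.03, beside -0.01 over all genes. With all 15 libraries all 10 were positive, with a median of 0.37 beside 0.13 over all genes, and none was called (limma adjusted p from 0.866 to 0.961).

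On vehicle, DAT mutant and WT heads were compared to ask whether the machinery differs at baseline without the transporter. None of the 10 genes was called by limma, 1 passed an unadjusted p under 0.05, and 8.59% of all genes were called. That 1 was n-syb, with 535, 566 and 545 RPKM in DAT vehicle, against 407, 420 and 491 RPKM in WT vehicle. Every DAT library lay above every WT library, as in 11.1% of all genes, with a log2 fold change of 0.32 (95% interval 0.06 to 0.59, limma adjusted p = 0.171). For the other 9 genes the groups overlapped and the log2 fold changes were between -0.14 for Syx1A and 0.11 for Rop. With all 15 libraries all 10 were negative, with a median of -0.44 beside -0.16 over all genes, none was called by limma and 0 passed an unadjusted p under 0.05. Over all transcripts 1.08% were called in that fit, and of 9901 genes 68 were higher and 83 lower. n-syb was then at -0.01. Of the cell type markers listed below, 4 of 6 for muscle were lower in DAT vehicle, and 1 of 6 with all 15 libraries. These comparisons share the vehicle libraries with the AMPH responses and are not independent of them.

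On AMPH, DAT mutant and WT heads gave overlapping values for all 10 genes. None was called by limma, 0 passed an unadjusted p under 0.05, and 5.99% of all genes were called. The largest log2 fold change was that of cpx, with 646 ± 236 RPKM in DAT AMPH (SD, n = 3) and 498 ± 163 RPKM in WT AMPH (SD, n = 4), or 0.38 with a 95% interval of -0.36 to 1.12. The other 20 cpx transcripts were at -0.07 to -0.06. The lowest log2 fold change of the 10 genes was -0.21 for Syx1A, at 49.1 ± 8.13 RPKM in DAT AMPH (SD, n = 3) and 56.9 ± 8.09 RPKM in WT AMPH (SD, n = 4). n-syb, which stood higher in DAT mutants on vehicle, was at 414 ± 41.5 RPKM in DAT AMPH (SD, n = 3) and 403 ± 43.3 RPKM in WT AMPH (SD, n = 4), a log2 fold change of 0.04 (95% interval -0.28 to 0.37).

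The transcripts of a gene share exons and hence reads, so they are not independent measurements. Among all 55, 10 were called lower in WT after AMPH and 7 in DAT mutants, none higher. Of all transcripts, 14.8% were called lower and 7.2% higher in WT, and 15.4% lower and 6.71% higher in DAT mutants. The 21 transcripts of cpx fall in 2 sets by their end: FBtr0078902 ends at 128309, and the other 20 end at 127263. In the later annotation of the genome the coding part of FBtr0078902 has 138 codons and a stop codon of its own, not shared with the other annotated cpx transcripts. FBtr0078902 averaged 705 RPKM over the 13 libraries, while the others averaged 291 to 351 RPKM. In WT, where FBtr0078902 fell, the other 20 had log2 fold changes of -0.12 to -0.04 and none was called (limma adjusted p from 0.795 to 0.951). A call for 1 transcript and not for others does not show that they differ, and the ratio between them was tested.

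Within a library, the ratio of FBtr0078902 to the median of the other 20 was 1.35, 2.17, 2.18 and 0.743 in WT AMPH replicates 1 to 4, against 2.05, 2.39 and 3.05 in WT vehicle replicates 2 to 4. In WT AMPH replicate 4 FBtr0078902 was thus at 281 RPKM while the median of the others was at 379 RPKM, the only library with the ratio under 1. The groups overlapped, and the mean ratio was 1.61 ± 0.695 in WT AMPH (SD, n = 4) and 2.50 ± 0.507 in WT vehicle (SD, n = 3; two-sided exact permutation test, p = 0.171, smallest possible 0.057, Benjamini-Hochberg adjusted p = 0.588 over 24 such tests). In DAT mutants the ratio was 2.94, 1.59 and 1.74 in DAT AMPH, against 3.09, 1.86 and 2.14 in DAT vehicle replicates 1, 3 and 4 (exact permutation p = 0.500). The choice of this ratio was made after its values were seen. With these group sizes no adjusted p of the 24 tests could fall under 0.1, so they cannot decide whether the ratio changed.

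**Figure D3:**
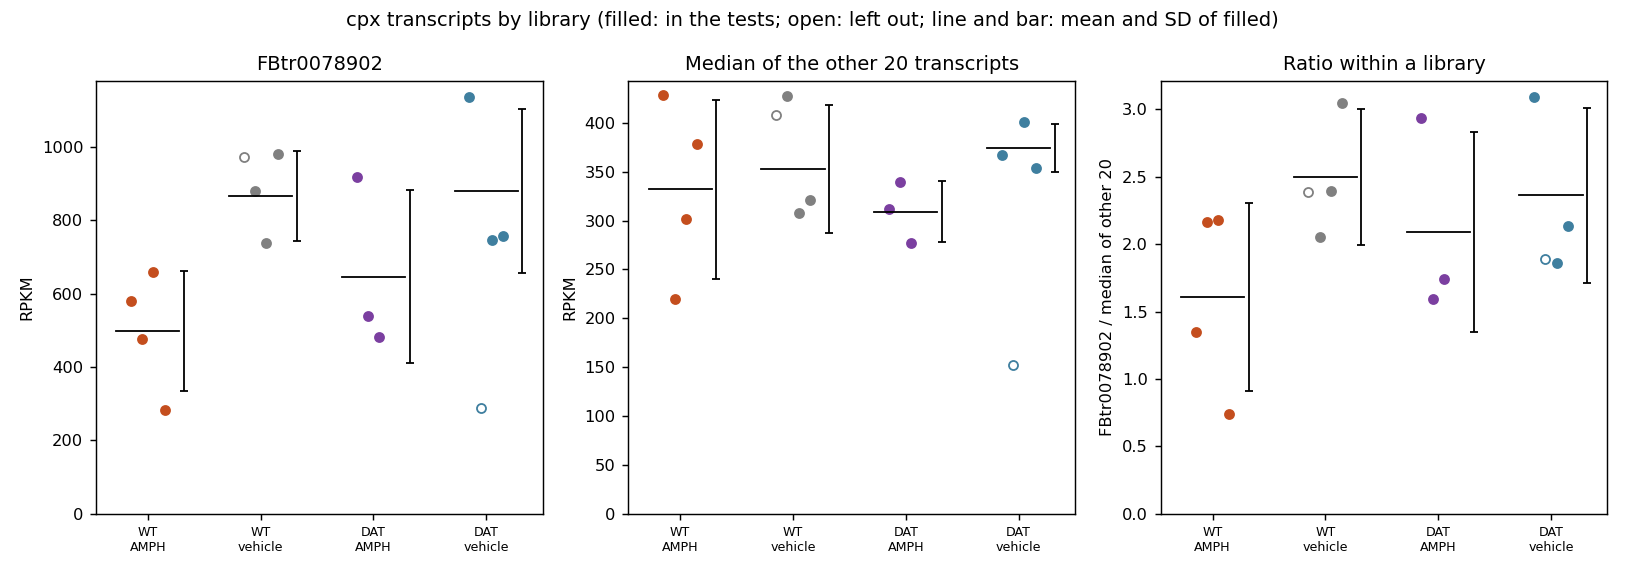
Levels of cpx FBtr0078902 and the median of the other 20 cpx transcripts (y axes, RPKM from 0) and their ratio within each library (y axis, from 0), by group (x axis); filled points are the 13 libraries tested, open points the 2 left out, lines and bars the mean and SD of the filled points. In WT AMPH, FBtr0078902 lies below WT vehicle in all libraries while the other transcripts overlap, and 1 WT AMPH library has a ratio of 0.743.

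For brp the transcripts moved together in WT. The 4 besides FBtr0300542 were all called lower, with log2 fold changes of -0.56 to -0.49 (limma adjusted p from 0.012 to 0.060). The shortest span, FBtr0299917, which ends at 5411851 and averaged 26.5 RPKM, had the lowest p of the 55 in this comparison. In DAT mutants the same 4 were at -0.43 to -0.31 and not called (limma adjusted p from 0.119 to 0.211). The 4 other transcripts of n-syb were all called in DAT mutants, at -0.41 to -0.38 (limma adjusted p from 0.045 to 0.057), and none in WT, at -0.13 to -0.12. In shi, 5 transcripts share the far end at 15800285 and averaged 134 to 144 RPKM, while the 7 that end at 15799262 averaged 114 to 124 RPKM. The calls in WT were FBtr0301596 and 2 more of the far-end set, and all 12 were negative in both strains. The other transcripts of Syt1 (3), unc-13 (2) and Snap25 (1) were uncalled, as was each gene's most abundant transcript. Ratios between transcripts of 6 genes, cpx among them, made up the 24 tests above. With these group sizes the smallest possible exact permutation p was 0.057 or 0.1, so no adjusted p could fall under 0.1. None of the 24 ratio tests could thus pass Benjamini-Hochberg adjustment, and they cannot decide whether a ratio changed. Among those whose groups did not overlap, Syt1 FBtr0077729 over FBtr0077728 was 0.844 ± 0.0402 in WT AMPH (SD, n = 4) and 0.774 ± 0.00720 in WT vehicle (SD, n = 3; exact permutation p = 0.057, the smallest possible, adjusted p = 0.457). The mean of unc-13 FBtr0089247 over FBtr0089246 was 0.786 in DAT vehicle and 0.769 in WT vehicle, and 0.775 in DAT AMPH and 0.749 in WT AMPH. In DAT mutants this ratio was lower on AMPH than on vehicle, as was n-syb FBtr0300893 over FBtr0072815 (1.10 and 1.12). Each had an exact permutation adjusted p of 0.457.

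Snap25 and unc-13 stood out from the other genes in one more way: the libraries of each group came in the same order in both. In WT AMPH, replicates 1 and 4 were high and 2 and 3 low, with 138, 73.9, 75.6 and 118 RPKM for Snap25 and 108, 63.9, 79.6 and 105 RPKM for unc-13. In WT vehicle, Snap25 had 93.6, 111, 83.5 and 82.2 RPKM and unc-13 had 89.4, 94.6, 83.6 and 79.9 RPKM in replicates 1 to 4. In DAT AMPH, replicate 2 was highest in both, with 75.6, 122 and 80.0 RPKM for Snap25 and 73.8, 99.7 and 77.9 RPKM for unc-13. In DAT vehicle, replicate 3 was highest and replicate 2 lowest, with 74.6, 46.7, 102 and 88.1 RPKM for Snap25 and 69.5, 21.6, 94.1 and 76.3 RPKM for unc-13. Of the 45 pairs among the 10 genes this was the only one with the same order in all 4 groups, over the 13 libraries and over all 15. It is given as a description, since it was noticed in the data.

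**Figure D4:**
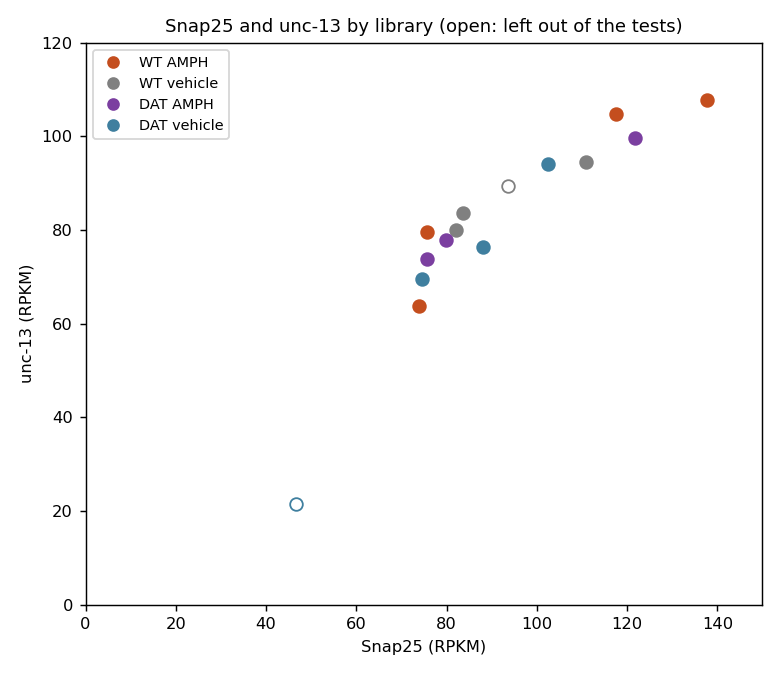
Snap25 (x axis, RPKM) and unc-13 (y axis, RPKM) in each of the 15 libraries, coloured by group, with the 2 libraries left out of the tests shown open. Within every group the library with more Snap25 also had more unc-13, and the groups overlap.

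Over the 13 libraries, shi followed the mean of the 10 standardised genes most closely (Pearson r of log2 values 0.93), and unc-13 (0.34) and Snap25 (0.36) least. Each of the 10 is itself part of that mean, so these r cannot be set beside those of other genes. Outside the 10, the genes most like that mean were CG42492 (r = 0.97), toc, CG5742, CG7145 and CG9395 (r = 0.95 each), the highest of 7942 genes with a mean of at least 5 RPKM. These are descriptions over 13 libraries of 2 strains, 2 foods and unequal depth, and differences between groups enter r.

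The rest of the release cycle was followed in 3 lists, whose medians stand beside -0.04 in WT and -0.05 in DAT mutants over all genes, and whose counts after AMPH stand beside 12.3% of all genes called lower in WT and 13.6% in DAT mutants. Of 22 fusion and release partners, none was called by limma in WT after AMPH (2 at an unadjusted p under 0.05, median log2 fold change -0.10) and 2 were lower in DAT mutants (median -0.12), Rph, the fly rabphilin, at -0.47 (limma adjusted p = 0.022) and Snap24, a paralogue of Snap25, at -0.26 (limma adjusted p = 0.079). Of 8 genes of the active zone scaffold and calcium entry found in the table, of 10 listed, 3 were lower in WT (median -0.30). They were the spinophilin gene Spn at -0.47 (limma adjusted p = 0.017), RhoGAP100F, also called syd-1, at -0.41 (0.054) and CG11206, now Liprin-gamma, at -0.34 (0.090), all known at fly active zones. In DAT mutants 1 was lower (median -0.21), Spn at -0.40 (limma adjusted p = 0.067). Of 18 endocytosis genes listed, 16 were found, which gave 15 measurements because stnA and stnB, the stoned genes, are read from 1 dicistronic transcript. Of the 15, 4 were lower in WT (median -0.24). Eps-15, an endocytic adaptor, was at -0.45 (limma adjusted p = 0.023), and stnA with stnB at -0.41 (0.050). Next came lap, the clathrin assembly protein AP180, at -0.34 (0.095). In DAT mutants 1 was lower (median -0.23), Eps-15 at -0.34 (limma adjusted p = 0.088). Over the 3 lists, 7 of 45 measurements (15.6%) were lower in WT and 4 of 45 (8.89%) in DAT mutants, and none was called higher with the 13 libraries. Median centring and quantile normalization each gave 1 fusion partner called higher in WT and 1 in DAT mutants. With all 15 libraries 12 were lower and 1 higher in WT, the higher one being Syb at 0.33 (limma adjusted p = 0.089), named after its value was seen, and in DAT mutants none of the 45 was called by limma, with 0 at an unadjusted p under 0.05. In these fits 1609 of 9922 genes were lower in WT and 1104 higher. In DAT mutants 111 of 10014 were lower and 88 higher. On vehicle, DAT mutants had less of Syn, the vesicle protein synapsin, at -0.44 (limma adjusted p = 0.045), less of cac, the presynaptic calcium channel, at -0.67 (0.051), and more of Rph at 0.42 (0.077). These 3 of 45, or 6.67%, stand beside 8.59% of all genes. With all 15 libraries none of the 45 was called by limma (2 at an unadjusted p under 0.05), beside 68 higher and 83 lower of 9901 genes. On AMPH none was called between the strains (7 at an unadjusted p under 0.05), while median centring gave 1 active zone and 1 endocytosis gene called higher in DAT mutants and quantile normalization 1 active zone gene. In the difference between the responses none was called by limma, with 1 at an unadjusted p under 0.05.

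Of 30 cell type markers, 9 (30%) were called lower after AMPH in WT and 15 (50%) in DAT mutants, beside 12.3% and 13.6% of all genes. With all 15 libraries 14 were lower in WT, beside 1609 of 9922 genes. In DAT mutants 2 were lower, both of the fat body, beside 111 of 10014 genes. No neuronal, glial, photoreceptor, muscle or hemocyte marker was called by limma in that fit, which called few genes of any kind. Sums below are over the 13 libraries. After AMPH in WT, 2 of 5 neuronal markers were called lower by limma, elav at -0.46 (adjusted p = 0.062) and futsch at -0.50 (0.022), and the summed level of the 5 was 484 to 693 RPKM in WT AMPH and 647 to 705 RPKM in WT vehicle. In DAT mutants futsch alone was lower, at -0.47 (adjusted p = 0.093), with sums of 485 to 556 RPKM in DAT AMPH and 558 to 664 RPKM in DAT vehicle. The 10 release genes summed to 1440 to 1952 RPKM in WT AMPH and 1990 to 2371 RPKM in WT vehicle, and to 1516 to 2086 RPKM in DAT AMPH and 2197 to 2477 RPKM in DAT vehicle. Of these sums, cpx FBtr0078902 made up 281 to 658 RPKM in WT AMPH and 737 to 981 RPKM in WT vehicle. It made up 481 to 916 RPKM in DAT AMPH and 745 to 1136 RPKM in DAT vehicle. Without this transcript the sums of the WT groups overlapped, while those of the DAT mutant groups did not. Of glial markers 2 of 7 were lower in WT and 6 of 7 in DAT mutants, with sums of 556 to 650 RPKM in WT AMPH and 708 to 862 RPKM in WT vehicle, and of 447 to 460 RPKM in DAT AMPH and 603 to 817 RPKM in DAT vehicle. Photoreceptor markers were lower in 0 of 7 in WT (sums of 35968 to 46564 RPKM in WT AMPH and 30668 to 56572 RPKM in WT vehicle) and in 2 of 7 in DAT mutants (43104 to 45514 RPKM in DAT AMPH and 51240 to 54302 RPKM in DAT vehicle). Of muscle markers 3 of 6 were lower in each strain, with sums of 537 to 696 RPKM in WT AMPH and 877 to 1192 RPKM in WT vehicle, and of 527 to 633 RPKM in DAT AMPH and 601 to 804 RPKM in DAT vehicle. Of the 2 fat body markers found, 1 was lower in WT and 2 in DAT mutants, with sums of 9.73 to 24.1 RPKM in WT AMPH and 62.7 to 137 RPKM in WT vehicle, and of 11.1 to 25.5 RPKM in DAT AMPH and 142 to 174 RPKM in DAT vehicle. WT vehicle replicate 1, left out here, had a fat body sum of 9.98 RPKM, inside the range of WT AMPH. Of 3 hemocyte markers 1 was lower in each strain, Pxn, with sums of 22.4 to 26.6 RPKM in WT AMPH and 25.0 to 27.6 RPKM in WT vehicle, and of 21.9 to 28.1 RPKM in DAT AMPH and 28.0 to 39.1 RPKM in DAT vehicle. DAT vehicle replicate 2, also left out, had sums of 226 RPKM for neurons and 452 RPKM for glia, the glial sum lying inside the range of DAT AMPH, and 829 RPKM for the 10 release genes. No marker had a value of 0 in any library and none was called higher after AMPH. Between strains on AMPH, 1 glial marker was higher and 1 lower in DAT mutants. The part of these shifts in the values of the release genes was not tested.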

How the data were processed

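The authors made libraries from polyadenylated RNA, sequenced them on an Ion Torrent instrument, mapped reads to dm3 with tmap and deposited RPKM values per transcript. How reads were counted is not given in the sources used here. Most libraries join several sequencing runs, while WT vehicle replicate 3 and DAT AMPH replicate 1 hold 1 run. The 10 genes and all lists were chosen with earlier results of these data known. Every member was to be named by its most abundant transcript, list genes by at most the 3 largest changes past the threshold, and likeness by the 5 highest r. A transcript entered a fit if it reached 1 RPKM in enough libraries to fill the smaller group. Fits used limma 3.58.1 (R 4.3.3) on log2(RPKM + 1) with trended variances, a scale that understates changes of low transcripts. Benjamini-Hochberg adjustment ran over all transcripts, with a threshold of 0.1. Code was tested on simulated data. The 13 libraries are those whose averages give the study's group means, which is an inference. Codons came from a later annotation (BDGP6), tables and figures from Python 3.11.15, scipy 1.17.1 and matplotlib 3.10.9. The alternatives tried were the full 15 libraries, leave-one-out fits, other filters, thresholds, scalings and pseudocounts, 1 transcript per gene, 1 fit of all groups, no trend and a replicate block. Fits of 14 libraries were added after seeing the data. Replicate numbers are those of the sample descriptions. Same-numbered libraries had deviations from group means that correlated between -0.45 and 0.17, and the tests did not pair them. Libraries of different numbers were not compared in this way, so these values cannot decide whether the numbers pair libraries.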

Additional observations from a re-analysis of the deposited data

Results flagged for a closer look

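Over all labelled libraries, 30 groups of 4 values (10 genes in the 3 groups that hold 4 libraries) were screened for a library far from the others by Dixon's criterion, and 5 were marked. Chance marks about 1 in 20 such groups, and genes of 1 library are not independent. In 4 of the 5 the library was DAT vehicle replicate 2, which lay below the rest of its group with 235 RPKM for n-syb, 17.8 RPKM for Syx1A, 31.2 RPKM for comt and 62.9 RPKM for shi. The same library was not part of the main tests, and no cause of its low values was tested. The other was WT AMPH replicate 1 for Rop, at 86.8 RPKM above 3 libraries between 75.0 and 75.7 RPKM.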

How the results depend on the processing

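The number of release genes called after AMPH in WT was 4, and it fell to 0 at an adjusted p under 0.05 and with median centring, to 1 with quantile normalization and to 2 with 1 transcript per gene in the fit. It ranged from 0 to 7 when 1 library was left out, while 11.9% to 26.8% of all transcripts were called. In DAT mutants the number was 3, and it fell to 0 with all 15 libraries, with the replicate block and with quantile normalization, and to 1 at an adjusted p under 0.05 and with median centring. It ranged from 0 to 5 when 1 library was left out, while 12.2% to 22.9% of all transcripts were called. In the other 3 comparisons 0 genes were called by their most abundant transcript under each alternative run. Of all 55 transcripts, 1 was called higher in DAT mutants on vehicle without WT vehicle replicate 4, beside 3.37% of all transcripts. The direction turned for 2 called genes, both with all 15 libraries in DAT mutants: Syx1A came to 0.072 and comt to 0.153 on the log2 scale. No called gene of WT changed direction, and cpx stayed between -1.01 and -0.60 with each library left out. Same-numbered libraries did not deviate together, and the main tests did not pair them, though this cannot decide whether the numbers pair libraries across groups. With the replicate block 3 genes were called in WT and 0 in DAT mutants. Across all transcripts, the count of calls after AMPH in DAT mutants was 3862 with the 13 libraries, 258 with all 15, 1774 with the replicate block and 2551 at an adjusted p under 0.05, and after AMPH in WT it was 3868 and 2458 at an adjusted p under 0.05. Between strains it was 1478 on vehicle, 189 with all 15 libraries, 75 with the replicate block and 793 at an adjusted p under 0.05. On AMPH it was 973, 109 with the replicate block, 549 at an adjusted p under 0.05 and 1670 in 1 fit of all groups. For the difference between responses it was 26, and 8 with all 15 libraries.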
